A study of Mus musculus with 36 samples.

Results

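Iron handling was followed through 10 genes, chosen by name from the 78239 genes counted in each library: the hepcidin genes Hamp and Hamp2, the hepcidin regulators Bmp6, Hjv and Tfr2, the transport and uptake genes Trf and Tfrc, the exporter Slc40a1, and the ferritin chains Fth1 and Ftl1. The mice were C57BL/6NCrl males, an inbred laboratory strain, whose heart, kidney and liver RNA was sequenced at an age of 8, 10 or 12 weeks. All mice were wild type (genotype WT), bought at one age from a single breeder and left untreated. The older groups also spent longer in the facility before tissue was taken, so age and time since arrival cannot be told apart. Each of the 9 groups of tissue and age held 4 libraries of polyA RNA, 36 in all, and the labels do not say which libraries of different tissues came from the same mouse. Tissue was taken after anaesthesia with ketamine and xylazine and blood sampling behind the eye.

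Iron is carried in plasma by transferrin, taken up by cells through transferrin receptor 1, stored in ferritin and released through ferroportin, the known iron exporter of mammalian cells. The liver hormone hepcidin blocks ferroportin and so lowers the iron that enters plasma. Hepatocytes raise hepcidin when the bone morphogenetic protein BMP6, made mainly by the sinusoidal endothelium, acts on them together with the coreceptor hemojuvelin, and transferrin receptor 2 takes part in sensing iron-loaded transferrin. Cells that lack iron let iron regulatory proteins bind hairpins called iron responsive elements, which block translation when they lie ahead of the coding region and stabilise the transcript when they lie behind it. In the mouse the hepcidin gene exists as the close pair Hamp and Hamp2.

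The libraries held 21031599 to 33637390 read pairs counted on genes. The counts without regard to strand, called unstranded here, were scaled to library size and are given as CPM, the counts in each 1e6 counted pairs, with TMM factors over all 36 libraries. Cardiomyocyte markers (Myh6, Actc1, Tnnt2, Tnni3 and Myl2) summed to 46314 to 62070 CPM in heart and to at most 1.52 CPM in the other tissues, proximal tubule markers to 18574 to 24087 CPM in kidney, and hepatocyte markers to 88288 to 154077 CPM in liver. Heart libraries 2 and 4 at 10 weeks stood apart, with hepatocyte marker sums of 17.1 and 22.6 CPM, followed by heart library 4 at 12 weeks with 3.89 CPM, where the other 9 heart libraries lay between 0.11 and 0.779 CPM. Of the erythroid markers, Hba-a2 and Hbb-bs were at 0 in every group. Nothing in the sources used here ties libraries to separate extractions or runs, so the p-values measure the spread between these libraries.

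The sequences that join these genes to iron are short. A search of the canonical GENCODE transcripts on GRCm39 for an iron responsive element, taken as an unpaired C, 5 paired bases, the loop CAGTGN and the 5 matching bases with G-T pairs allowed, found it in 4 of the 10 members. The ferritin chains and the exporter each held 1 match in the 5′ untranslated region, at chr19:9960098-9960122 on the plus strand for Fth1, chr7:45109205-45109229 on the minus strand for Ftl1 and chr1:45964627-45964651 on the minus strand for Slc40a1. Tfrc held 4 in the 3′ untranslated region, all on the plus strand of chromosome 16. They are shown 5′ to 3′ with the loop in capitals.
Fth1: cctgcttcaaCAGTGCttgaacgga
Ftl1: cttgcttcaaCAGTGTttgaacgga
Slc40a1: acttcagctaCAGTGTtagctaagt
Tfrc, chr16:32450039-32450063: ttatcggaagCAGTGCcttccataa
Tfrc, chr16:32450418-32450442: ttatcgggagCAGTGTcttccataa
Tfrc, chr16:32450483-32450507: atatcggagaCAGTGAtctccatat
Tfrc, chr16:32450530-32450554: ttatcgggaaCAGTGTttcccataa
The same search matched 24 of 20510 annotated 5′ regions (0.117%) and 124 of 20658 annotated 3′ regions (0.60%). No match was found in Hamp, Hamp2, Bmp6, Hjv, Tfr2 or Trf, which says only that this pattern of letters is not in their annotated untranslated regions.

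Hamp and Hamp2 are close copies, and read pairs that fall equally well on both were counted for neither, so the level of each is uncertain by that share. Where a gene lies on top of another on the opposite strand, the unstranded count leaves out the pairs that touch both, and several members lie so. Hamp (ENSMUSG00000050440, chr7:30641766-30643990) and Hamp2 (ENSMUSG00000056978, chr7:30621797-30624106) both lie under the long noncoding gene Gm44662. The libraries did not keep strand, with 49.8% to 50.2% of pairs on the first strand, so the sum of the 2 strand counts recovers these pairs but gives them to both genes of an overlap, and a gene and its antisense partner cannot be told apart. In liver, the unstranded count kept 4.03% of the pairs in this sum for Hamp (6910 of 171286) and 0.125% for Hamp2 (7 of 5617). It kept 13.0% for Ftl1, 53.6% for Fth1, 78.2% for Trf and 85.4% for Bmp6, and 99.9% or more for Slc40a1, Tfr2, Hjv and Tfrc. Of 12129 genes with at least 1000 pairs in liver the median kept was 98.2%, and 1732 genes (14.3%) kept under 10%. Tissue levels of Hamp, Hamp2, Ftl1, Fth1, Trf and Bmp6 are therefore given both ways, and the plot of levels by library shows both.

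**Figure D1:**
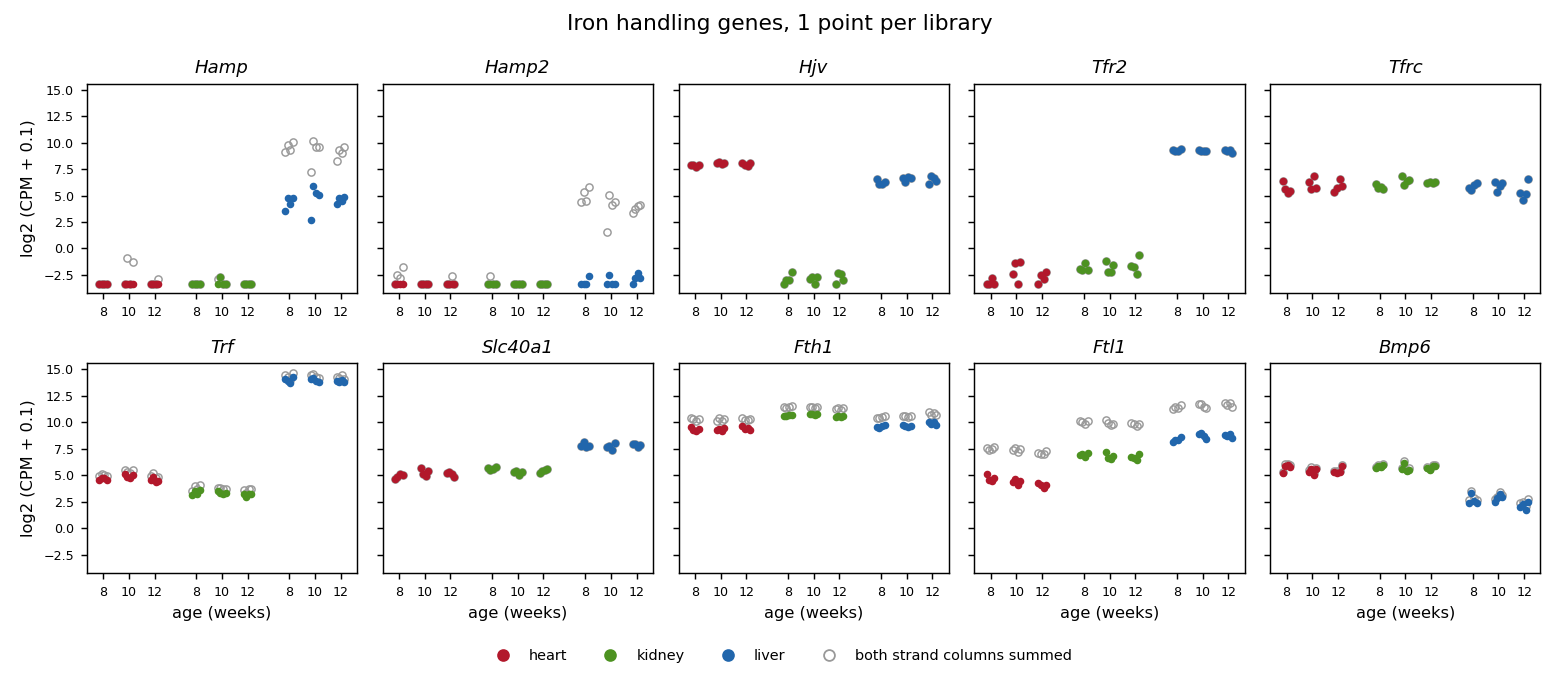
Level of each of the 10 genes in each of the 36 libraries, as log2 (CPM + 0.1) against age in weeks, with heart in red, kidney in green and liver in blue; filled points are unstranded counts and open grey points both strand counts summed. Hamp, Tfr2 and Trf are far higher in liver than in the other tissues, Hjv is near its floor in kidney, and the open points lie well above the filled ones for Hamp, Hamp2 and Ftl1.

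Hamp, which encodes hepcidin, was found in liver and hardly elsewhere. Its unstranded level in liver was 26.5 ± 13.4 CPM (mean ± SD, n = 12), between 6.27 and 58.3 CPM, against 0 counts in all 12 heart libraries and 2 counts in 1 of 12 kidney libraries. With 3 counts over the tissue as the limit that a count of 0 allows, which covers counting error only, the liver level was at least 2557-fold higher than in heart. With both strands summed the liver level was 676 ± 286 CPM (range 147 to 1118 CPM), with 17 pairs in heart and 3 in kidney. The heart pairs came from the 3 libraries with the highest hepatocyte marker sums (9 and 7 pairs in libraries 2 and 4 at 10 weeks and 1 in library 4 at 12 weeks), and the part of that signal in them was not tested.

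Hamp2, the paralog, had 7 unstranded counts in all 12 liver libraries together and none in heart or kidney, too few for a level. With both strands summed it reached 22.5 ± 14.4 CPM in liver (2.90 to 55.3 CPM), with 10 pairs in heart and 2 in kidney. Per kilobase of canonical transcript, the liver levels with both strands were 988 CPM for Hamp and 51.5 CPM for Hamp2.

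The regulators of hepcidin were split between tissues. Hjv (chr3:96432424-96439496) encodes hemojuvelin, which is known from both liver and striated muscle. It was highest in heart, at 248 ± 22.1 CPM (212 to 282 CPM), lower in liver at 88.5 ± 17.1 CPM (66.1 to 116 CPM), and had 20 counts in the 12 kidney libraries together. No liver library reached the lowest heart library, and the difference liver minus heart was -1.49 ± 0.09 (log2 ± SE) in the edgeR fit over all 36 libraries, with an adjusted p of 1.26e-17. The ratio of heart to kidney was 5590 (95% counting interval 3619 to 9151).

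Tfr2 (chr5:137568087-137586343) encodes transferrin receptor 2. Its 12 liver libraries lay between 535 and 674 CPM, with a mean of 607 ± 35.6 CPM, the tightest spread for its level among the members in liver. Kidney held 99 counts over 12 libraries (0.219 ± 0.129 CPM) and heart 22. Of the heart counts, 6 and 7 fell in libraries 2 and 4 at 10 weeks, the libraries with the hepatocyte signal. The ratio of liver to kidney was 2766 (95% counting interval 2272 to 3403).

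Bmp6 (chr13:38529065-38684280) had the reverse order. It stood at 54.3 ± 8.81 CPM in kidney, 46.8 ± 10.5 CPM in heart and 6.14 ± 2.11 CPM in liver, where the highest library (10.2 CPM) was below every library of the other tissues. In the edgeR fit liver was lower than heart by -2.95 ± 0.13 (log2 ± SE, adjusted p = 3.96e-21) and lower than kidney by -3.17 ± 0.13 (adjusted p = 7.46e-22). Kidney and heart overlapped and the difference of 0.22 ± 0.11 had an adjusted p of 0.0638 in edgeR, which became 0.0252 with both strands summed. The levels with both strands were 58.7 CPM in kidney and 51.0 CPM in heart, and lay between 4.24 and 11.1 CPM in liver. In whole tissue, fewer cells of a type and less RNA per cell cannot be told apart, and Bmp6 is known as a product of one liver cell type. The sinusoidal endothelial markers (Stab2, Clec4g, Lyve1, Oit3 and Fcgr2b) summed to 115 to 293 CPM in the liver libraries.

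Trf and Tfrc carry iron to cells and take it in. Trf (chr9:103081200-103107814), the plasma iron carrier, ran from 13350 to 20513 CPM in liver, with a mean of 16228 ± 2170 CPM. Heart held 26.5 ± 4.26 CPM and kidney 9.76 ± 1.26 CPM. No 2 tissues overlapped, and liver exceeded heart by 9.27 ± 0.11 and kidney by 10.70 ± 0.11 (log2 ± SE, edgeR adjusted p of 8.88e-38 and 4.87e-38). Counted on both strands, Trf was at 20754, 35.3 and 13.2 CPM in liver, heart and kidney. Tfrc (chr16:32427556-32451612), which encodes transferrin receptor 1, was the most evenly spread member, at 73.4 ± 18.2 CPM in kidney, 62.0 ± 23.6 CPM in heart and 56.2 ± 20.7 CPM in liver. These 3 tissues overlapped, and no pair of them passed the edgeR test (adjusted p of 0.22, 0.473 and 0.053 for kidney minus heart, liver minus heart and liver minus kidney). The last became 0.0456 with both strands summed, 0.0145 with a block for age and library number, 0.0149 with limma-voom and 0.0416 with RLE factors. With plain CPM all 3 pairs passed the edgeR test, at 0.76, -0.41 and -1.17 (log2, adjusted p of 0.000268, 0.0363 and 4.65e-07). The evenness of Tfrc between tissues therefore depended on the scaling. In liver the ratio of Tfr2 to Tfrc counts ran from 5.77 to 25.3, both ends at 12 weeks.

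Slc40a1 (chr1:45947211-45965683) encodes ferroportin, through which hepatocytes and macrophages are known to release iron. It was at 226 ± 32.3 CPM in liver, 44.0 ± 6.32 CPM in kidney and 34.9 ± 6.97 CPM in heart. Every liver library (170 to 291 CPM) was above every library of the other tissues, by 2.71 ± 0.09 over heart and 2.37 ± 0.08 over kidney (log2 ± SE, edgeR adjusted p of 3.23e-25 and 1.58e-23). Kidney and heart overlapped in range, and their difference of 0.34 ± 0.08 passed the test (edgeR adjusted p = 0.000312).

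Ferritin is a shell built of heavy chains, which oxidise iron, and light chains, which help it mineralise. Fth1 (chr19:9957911-9962462), the heavy chain gene, was highest in kidney at 1619 ± 102 CPM, followed by liver at 856 ± 110 CPM and heart at 675 ± 67.8 CPM, the last 2 overlapping. These levels became 2694, 1597 and 1254 CPM with both strands summed. Ftl1 (chr7:45107367-45109308), the light chain gene, had another order, with 396 ± 70.9 CPM in liver, 114 ± 17.4 CPM in kidney and 21.7 ± 5.84 CPM in heart. The 3 tissues did not overlap for Ftl1, and liver exceeded heart by 4.21 ± 0.10 and kidney by 1.79 ± 0.09 (log2 ± SE, edgeR adjusted p of 4.57e-29 and 2.57e-19). With both strands summed the Ftl1 levels were 3065, 975 and 165 CPM in the same order, with differences of 4.24 and 1.64. Kidney exceeded heart by 1.26 ± 0.05 for Fth1 and 2.41 ± 0.09 for Ftl1 (edgeR adjusted p of 1.45e-21 and 1.17e-22). The ferritin genes have processed copies elsewhere in the genome, and pairs that match a copy equally well were not counted.

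Among the tissue calls of the members, that of Fth1 between liver and heart was the 1 lost in another setting, with the scaling factors left out. It was 0.34 ± 0.05 (log2 ± SE, edgeR adjusted p = 3.78e-07) with TMM factors and 0.07 (adjusted p = 0.19) with plain CPM. Plain CPM also added calls, those of Tfrc in all 3 pairs of tissues and of Bmp6 for kidney minus heart (0.75, edgeR adjusted p = 2.04e-07). Leaving out the factors moved the median of all genes by 0.53 for kidney minus heart, -0.26 for liver minus heart and -0.79 for liver minus kidney, and the differences between tissues here are relative to the TMM scale. Of all genes tested, 86.1%, 84.2% and 83.1% passed in these 3 comparisons (85.7% and 83.1% with both strands for kidney minus heart and liver minus kidney), so a call between tissues was usual for any gene. Of the members kept in the fit, 6 of 9, 8 of 9 and 8 of 9 passed, with Hamp2 not kept.

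The balance of ferritin chains separated the tissues without overlap. Per kilobase, and with both strands summed, the ratio of Fth1 to Ftl1 was 6.63 to 10.2 in heart, 2.52 to 3.26 in kidney and 0.458 to 0.616 in liver. The unstranded counts gave ratios of 22.2 to 54.5, 12.7 to 18.5 and 1.72 to 2.75. The order of the tissues held in both counts, whereas which chain was higher in liver did not. In heart the mean ratio with both strands was 7.27 at 8 weeks, 7.50 at 10 weeks and 9.44 at 12 weeks, as the plot of this ratio shows.

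**Figure D2:**
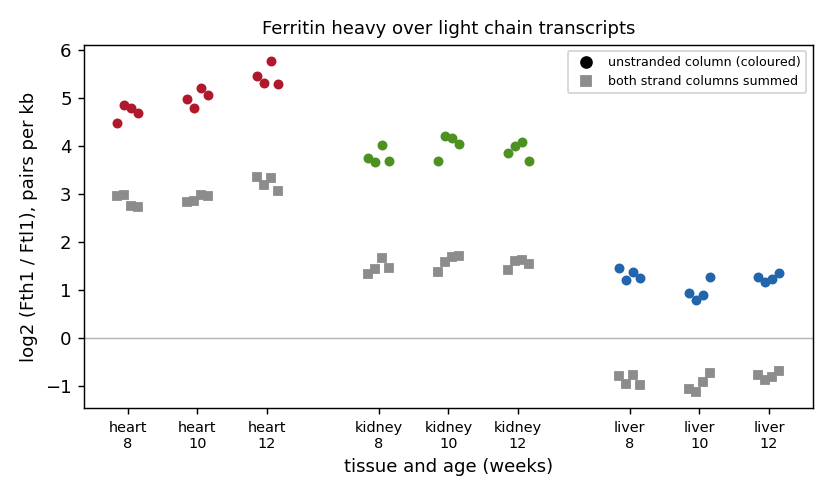
Log2 of the ratio of Fth1 to Ftl1 read pairs per kilobase in each library, by tissue and age in weeks; coloured circles are unstranded counts and grey squares both strand counts summed, and the line at 0 marks equal levels. Heart lies above kidney and kidney above liver in both counts, while liver lies above 0 with unstranded counts and below 0 with both strands summed.

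Set side by side per kilobase with both strands summed, the members formed a different profile in each tissue. In liver the order was Trf (8072 CPM per kilobase), Ftl1 (3163), Fth1 (1719), Hamp (988), Tfr2 (164), Slc40a1 (65.4), Hamp2 (51.5), Hjv (17.5), Tfrc (11.5) and Bmp6 (2.01). In heart it was Fth1 (1350), Ftl1 (170), Hjv (49.0), Bmp6 (14.2), Trf (13.7), Tfrc (12.7) and Slc40a1 (10.1), followed by Hamp, Hamp2 and Tfr2 below 0.1. In kidney it was Fth1 (2900), Ftl1 (1006), Bmp6 (16.3), Tfrc (15.0), Slc40a1 (12.7) and Trf (5.15), with the remaining 4 below 0.1. The values from 10.1 to 14.2 in heart and from 12.7 to 16.3 in kidney lay close together, and their order was not tested. The unstranded counts reordered the genes that lie under others. In liver Fth1 (922) then stood above Ftl1 (409), Hamp (38.8) below Tfr2 and Slc40a1, and Hamp2 (0.0625) last. In heart Ftl1 (22.4) then stood below Hjv, and Trf (10.3) below Tfrc.

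The change with age was asked of each tissue on its own, with a gene called when its adjusted p over all genes tested was under 0.05 in edgeR's quasi-likelihood test. In heart, 7 members were kept, since Hamp, Hamp2 and Tfr2 had too few counts. At 12 against 8 weeks 1 of the 7, Ftl1, was called, in a comparison that called 4.56% of all 15137 genes tested. At 10 against 8 weeks 0 of 7 were called (1.06% of all genes) and 4 had an unadjusted p under 0.05, as had 15.8% of all genes. At 12 against 10 weeks it was 0 of 7 (0.0396%), with 2 members and 11.7% of all genes at an unadjusted p under 0.05.

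Ftl1 fell in heart with age. Its heart libraries read 35.7, 23.1, 22.0 and 26.9 CPM at 8 weeks, 20.7, 25.4, 16.9 and 22.2 CPM at 10 weeks, and 19.5, 17.3, 13.7 and 17.1 CPM at 12 weeks. All 4 libraries at 12 weeks lay below all 4 at 8 weeks, and those at 10 weeks overlapped both; 12.7% of all heart genes separated 8 from 12 weeks in this way. The change from 8 to 12 weeks was -0.68 ± 0.15 (log2 ± SE), with an edgeR adjusted p of 0.022. With both strands summed the libraries read 186, 167, 178 and 199 CPM at 8 weeks and 140, 132, 128 and 162 CPM at 12 weeks, again apart, as for 12.2% of all genes in that count. The change there was -0.39 ± 0.09 (edgeR adjusted p = 0.0284, with 4.14% of all genes called), smaller than in the unstranded count. The call was lost without heart library 4 at 8 weeks or without library 2 or 3 at 12 weeks, where the changes were between -0.60 and -0.70 and the largest adjusted p was 0.0709. Without library 4 at 12 weeks, which held hepatocyte transcripts, the change was -0.69 and called, and the part of these transcripts was not tested further.

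For the heavy chain no change was called. Fth1 in heart lay between 587 and 760 CPM at 8 weeks and between 642 and 821 CPM at 12 weeks, and the change was 0.09 ± 0.10 (log2 ± SE, 95% interval -0.11 to 0.30, edgeR adjusted p = 0.598). The heart values with an unadjusted p under 0.05 and no edgeR call at 10 against 8 weeks were those of Hjv (0.22 ± 0.08, adjusted p = 0.185), Slc40a1 (0.41 ± 0.14, 0.169), Trf (0.29 ± 0.11, 0.197) and Ftl1 (-0.34 ± 0.15, 0.28). At 12 against 10 weeks they were those of Trf (-0.39 ± 0.11, 0.227) and Ftl1 (-0.34 ± 0.15, 0.401). Tfrc was widely spread in heart, with 36.7 to 80.5 CPM at 8 weeks, 47.8 to 112.5 CPM at 10 weeks and 40.9 to 93.4 CPM at 12 weeks. The erythroid marker sum in heart ran from 392 to 525 CPM at 8 weeks, 388 to 906 CPM at 10 weeks and 206 to 647 CPM at 12 weeks, overlapping between ages. Of the 5 cardiomyocyte markers, 3 were higher and 2 lower at 12 against 8 weeks (median 0.10). Only Myl2 among them was called, with a rise of 0.41 ± 0.10 (edgeR adjusted p = 0.0291). Of the proximal tubule markers, which mark a kidney cell type, Kap at 12 against 8 weeks (6.15, edgeR adjusted p = 0.0173) and Lrp2 at 10 against 8 weeks (4.10, 0.0415) were called in heart, as was the hepatocyte marker Ttr at 10 against 8 weeks (3.27, 0.0442), all with group means under 2 CPM. Their part in the heart results was not tested.

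In kidney 7 members were kept, without Hamp, Hamp2 and Hjv. Tfrc was called at 10 against 8 weeks, as 1 of 7 where 0.929% of all 17649 genes passed. The kidney libraries of Tfrc read 69.2, 51.9, 55.4 and 49.7 CPM at 8 weeks, 116, 64.1, 83.5 and 91.0 CPM at 10 weeks, and 73.4, 76.8, 74.7 and 75.5 CPM at 12 weeks. The libraries at 10 weeks were the most scattered and overlapped those at 8 weeks by 1 library on each side. All 4 at 12 weeks lay above all 4 at 8 weeks, and 6.61% of all kidney genes separated these ages. The rise from 8 to 10 weeks was 0.67 ± 0.14 (log2 ± SE), with an edgeR adjusted p of 0.0436, close to the threshold, and 0.0398 with both strands, where 1.2% of all genes were called. The call was lost in 10 of 12 fits that left out 1 library, with adjusted p up to 0.143, in a fit of those 2 ages alone and in the counts of a single strand. The change from 8 to 12 weeks was 0.41 ± 0.14 (adjusted p = 0.313), and 0 of 7 members were called there (0.0567% of all genes) or at 12 against 10 weeks (0.482%), with 1 unadjusted p under 0.05 in each, as had 11.7% and 16.4% of all genes.

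Slc40a1 and Fth1 separated ages in kidney without passing the adjusted threshold in edgeR, while both passed it in DESeq2. Slc40a1 read 51.6, 45.1, 46.9 and 55.1 CPM at 8 weeks and 40.7, 42.5, 33.0 and 38.6 CPM at 10 weeks, with no overlap. The difference was -0.34 ± 0.10 (log2 ± SE, edgeR adjusted p = 0.108), and 9.09% of all kidney genes separated these ages. In DESeq2 the adjusted p was 0.0399, where 3.65% of all genes were called. Fth1 read 1765, 1731, 1623 and 1729 CPM at 10 weeks and 1497, 1567, 1435 and 1586 CPM at 12 weeks, a difference of -0.19 ± 0.06 with an edgeR adjusted p of 0.121 and a DESeq2 adjusted p of 0.0145, where DESeq2 called 3.32% of all genes. Here 8.93% of all genes separated the ages.

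**Figure D3:**
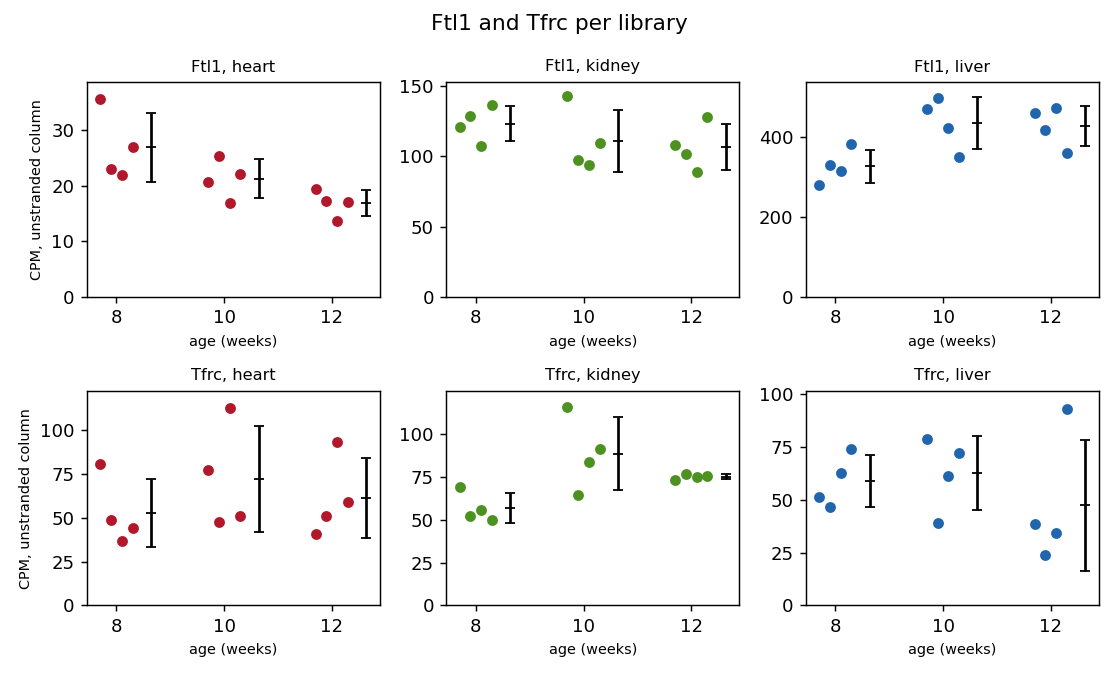
Unstranded level in CPM of Ftl1 (top) and Tfrc (bottom) in each library of heart, kidney and liver by age in weeks, on linear axes from 0, with the mean and SD of the 4 libraries beside each group. Ftl1 in heart lies lower at 12 weeks (13.7 to 19.5 CPM) than at 8 weeks (22.0 to 35.7 CPM), and Tfrc in kidney is highest and most scattered at 10 weeks.

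In liver 9 members were kept, without Hamp2, and 0 of 9 were called in any comparison by edgeR, where 0.0204%, 0.239% and 0.0545% of all 14672 genes passed at 10 against 8, 12 against 8 and 12 against 10 weeks. Unadjusted p-values under 0.05 were found for 1, 3 and 2 members, and for 14.3%, 15.1% and 14.1% of all genes. Replicates varied more in liver than in the other tissues, with a common coefficient of biological variation of 0.206 against 0.119 in heart and 0.113 in kidney. DESeq2 called 1 member, Fth1 at 12 against 8 weeks (adjusted p = 0.0413), where 2.89% of all genes were called.

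Hamp varied widely between liver libraries of one age. Unstranded Hamp read 11.9, 27.5, 18.0 and 27.8 CPM at 8 weeks, 6.27, 58.3, 37.8 and 32.9 CPM at 10 weeks, and 18.6, 27.4, 22.4 and 29.5 CPM at 12 weeks. With both strands summed it read 548, 855, 624 and 1091 CPM, then 147, 1118, 788 and 756 CPM, then 299, 614, 504 and 770 CPM. The lowest and the highest library were both at 10 weeks in both counts, and all ages overlapped. The lowest, library 1 at 10 weeks, also had the largest share of unmapped pairs of all 36 libraries (13.0%, with 68.6% counted on genes). Unmapped pairs made up 2.81% to 13.0% in liver, at most 1.43% in heart and at most 1.54% in kidney. Their part in the spread of Hamp was not tested. At 12 against 8 weeks the change was 0.20 ± 0.46 (log2 ± SE, 95% interval -0.81 to 1.20, edgeR adjusted p = 0.879) with unstranded counts and -0.53 ± 0.46 (-1.51 to 0.46, adjusted p = 0.624) with both strands, so the sign depended on the count and neither passed.

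Hamp2 with both strands read 20.5, 41.2, 21.9 and 55.3 CPM at 8 weeks, 2.90, 33.6, 16.9 and 21.0 CPM at 10 weeks, and 9.97, 13.5, 16.1 and 17.2 CPM at 12 weeks. All 4 libraries at 12 weeks lay below all 4 at 8 weeks, and 7.76% of all genes in that count separated these ages. The difference was -1.31 ± 0.51 (log2 ± SE), which did not pass the edgeR test (adjusted p = 0.272, with 0.263% of all genes called). The ratio of Hamp to Hamp2 pairs was 23.9 ± 4.35 at 8 weeks, 41.6 ± 8.30 at 10 weeks and 37.9 ± 8.37 at 12 weeks (mean ± SD, n = 4), with ranges of 19.7 to 28.5, 33.3 to 50.5 and 30.0 to 45.5. All ratios at 8 weeks were below all at 10 and 12 weeks, which was not tested.

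**Figure D4:**
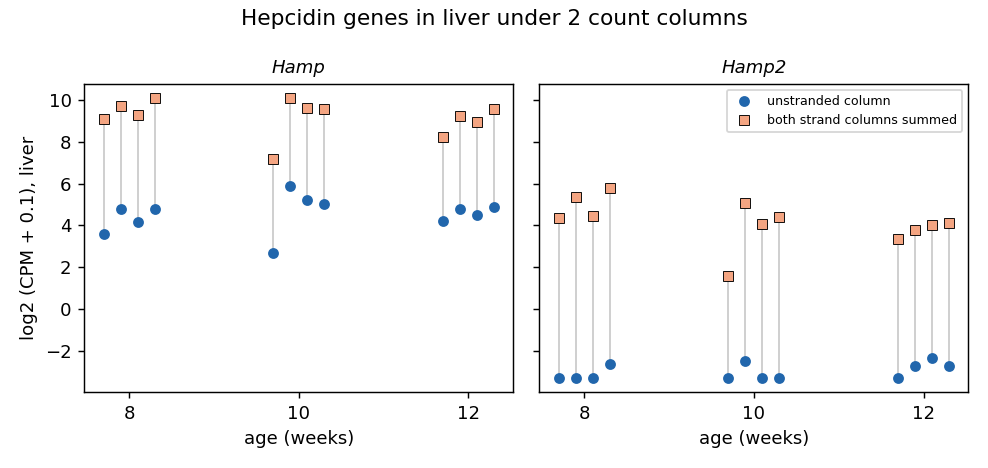
Hamp and Hamp2 in each liver library as log2 (CPM + 0.1) by age in weeks, with unstranded counts as blue circles joined to both strand counts summed as orange squares. The gap between the counts is wider for Hamp2, whose unstranded values lie at or near the floor, and library 1 at 10 weeks is the lowest for both genes with both strands.

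The ferritin genes of the liver gave higher values at the later ages without a call. Fth1 read 738, 732, 787 and 866 CPM at 8 weeks, 867, 823, 754 and 814 CPM at 10 weeks, and 1059, 900, 1061 and 876 CPM at 12 weeks. All 4 libraries at 12 weeks were above all others on this scale, and the change from 8 weeks was 0.31 ± 0.10 (log2 ± SE, edgeR adjusted p = 0.175). Of all liver genes, 8.14% separated 8 from 12 weeks and 8.23% separated 10 from 12 weeks. With plain CPM the libraries at 12 weeks stayed above those at 8 weeks but overlapped 10 weeks. Library 4 at 12 weeks then read 669 CPM and library 1 at 10 weeks 700 CPM. Ftl1 read 280, 329, 315 and 381 CPM at 8 weeks, 470, 499, 423 and 350 CPM at 10 weeks, and 461, 417, 472 and 360 CPM at 12 weeks, with a change of 0.38 ± 0.13 from 8 to 12 weeks (edgeR adjusted p = 0.21). On this scale both later ages overlapped the first. With plain CPM 12 weeks still overlapped 8 weeks, with 275 CPM in library 4 at 12 weeks and 276 CPM in library 4 at 8 weeks. The lowest library at 10 weeks then read 287 CPM, above all at 8 weeks, so that separation depended on the scaling.

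Bmp6 in liver read 5.17, 10.2, 5.91 and 5.13 CPM at 8 weeks, 5.65, 6.95, 9.44 and 7.75 CPM at 10 weeks, and 4.03, 4.70, 3.11 and 5.57 CPM at 12 weeks. The 12 against 10 week difference was -0.78 ± 0.25 (log2 ± SE, edgeR adjusted p = 0.191). The sinusoidal endothelial marker sum ran from 171 to 293 CPM at 8 weeks, 213 to 248 CPM at 10 weeks and 115 to 157 CPM at 12 weeks, with the 12 week libraries below all others, and 5 of 5 of these markers were lower at 12 against 10 weeks without an edgeR call. Its part in the Bmp6 values was not tested. The Kupffer cell and macrophage marker sum ran from 132 to 287, 322 to 504 and 184 to 205 CPM at the same ages.

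Tfr2, Hjv, Slc40a1, Trf and Tfrc in liver had intervals that held 0 at 12 against 8 weeks. Tfr2 was the narrowest, at -0.04 ± 0.08 (95% interval -0.22 to 0.14), and Tfrc the widest, at -0.31 ± 0.35 (-1.07 to 0.44). Tfrc at 12 weeks ranged from 23.8 to 92.7 CPM over 4 mice.

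**Figure D5:**
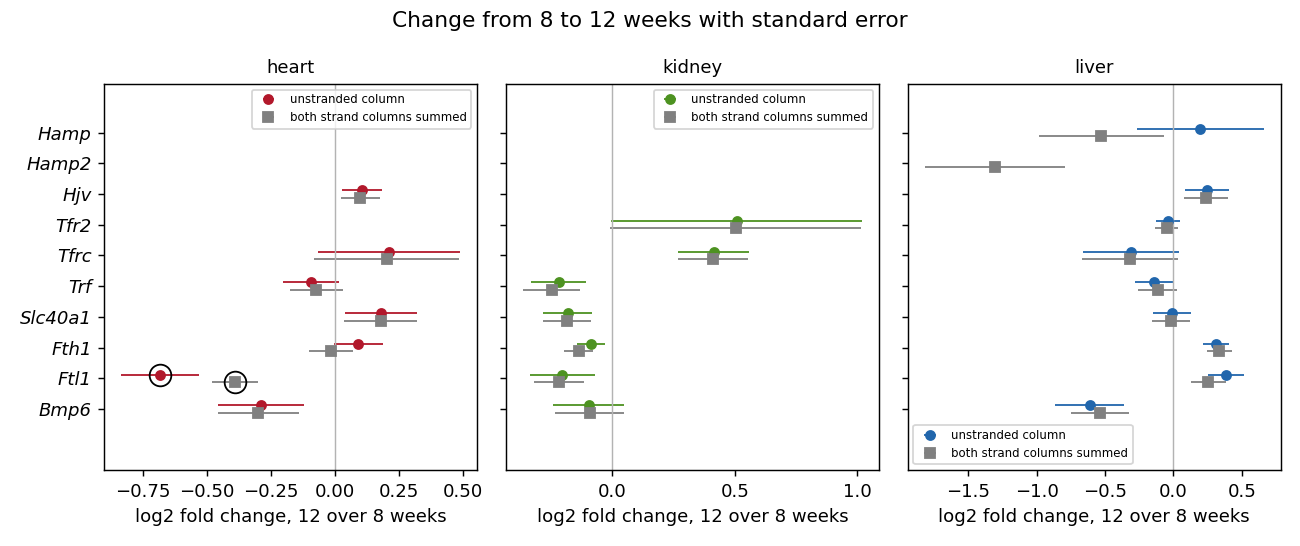
Log2 fold change from 8 to 12 weeks with its standard error for each gene kept in the fit, by tissue, with coloured circles for unstranded counts and grey squares for both strand counts summed; ringed points passed edgeR's adjusted p of 0.05. Ftl1 in heart is ringed in both counts, Hamp in liver lies on opposite sides of 0 in the 2 counts, and the axes differ between tissues.

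The light chain gene was also the member whose change with age differed between tissues. The change of Ftl1 from 8 to 12 weeks was higher in liver than in heart by 1.07 ± 0.22 (log2 ± SE, edgeR interaction, adjusted p = 0.00539), with 12 weeks above 8 weeks in the liver mean and below it in the heart mean. This test called 1 of 9 members and 4.16% of all 19716 genes. With both strands summed the difference was 0.66 ± 0.16 (edgeR adjusted p = 0.0173, with 4.56% of all genes called). Without each library in turn the unstranded difference was called in 36 of 36 fits, between 0.90 and 1.15. The liver minus kidney test called 0 of 9 (0.304% of all genes), with Fth1 at 0.41 ± 0.13 (edgeR adjusted p = 0.151) and 0.49 ± 0.12 (adjusted p = 0.0502) with both strands. The kidney minus heart test called 0 of 9 (0.112%), with an unadjusted p of 0.0382 for Ftl1 in edgeR.

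A wider list of 50 iron genes, covering hepcidin regulation, uptake and mitochondrial import, iron sensing and ferritin turnover, and haem handling, was read in the same fits. In heart at 12 against 8 weeks 4 of 47 were called, 1 higher and 3 lower, where 4.56% of all genes passed. Ncoa4, the receptor that takes ferritin to lysosomes for breakdown, rose from 32.8 ± 4.29 to 52.0 ± 5.32 CPM (mean ± SD, n = 4), by 0.66 ± 0.11 (log2 ± SE, edgeR adjusted p = 0.00548), with no overlap, as for 12.7% of all genes. Smad6, an inhibitor of BMP signalling, fell from 18.2 ± 1.48 to 11.8 ± 1.90 CPM (-0.63 ± 0.13, edgeR adjusted p = 0.0185), and Slc25a28, a mitochondrial iron importer, fell from 23.5 ± 0.671 to 18.8 ± 1.65 CPM (-0.33 ± 0.08, adjusted p = 0.0345). Without 1 library the call was lost in 3 of 12 fits for Smad6 (heart library 4 at 8 weeks, or 2 or 3 at 12 weeks, adjusted p up to 0.0586) and in 6 of 12 for Slc25a28 (all but library 1 at 8 weeks and library 4 at 12 weeks among those ages, up to 0.0916). Both calls were also lost in the counts of a single strand, where Smad6 had an adjusted p of 0.0795, and that of Slc25a28 in a fit of the 2 ages alone (up to 0.21 over these settings). Pcbp1, an iron chaperone that delivers iron to ferritin, fell by -0.82 ± 0.14 (adjusted p = 0.00603) from 5.11 to 2.90 CPM, a call that was lost with both strands summed and in the counts of a single strand.

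At 10 against 8 weeks 1 of 47 was called in heart, where 1.06% of all genes passed. Slc39a8, which carries iron and other metals into cells, rose from 1.17 ± 0.458 to 4.29 ± 1.90 CPM (1.88 ± 0.34, edgeR adjusted p = 0.0151), with the ranges of the 2 ages overlapping. Its call was lost without heart library 2 at 8 weeks or library 4 at 10 weeks (adjusted p up to 0.0637), while its change lay between 1.67 and 2.14 in the 12 fits that left out 1 library. In kidney 2 of 46 were called at 10 against 8 weeks (0.929% of all genes), both in haem handling. Hmox1, which breaks down haem and frees its iron, fell from 79.0 ± 20.8 to 23.6 ± 3.74 CPM (-1.72 ± 0.27, edgeR adjusted p = 0.0135), and all libraries at 10 weeks were below all at 8 weeks, a separation found for 9.09% of all genes. The call was lost without kidney library 3 at 10 weeks. Slc48a1, a haem transporter, fell from 141 ± 1.30 to 118 ± 2.92 CPM (-0.23 ± 0.05, adjusted p = 0.0467), a call that held in 2 of 12 fits that left out 1 library and was lost with a replicate block and in the counts of a single strand.

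In liver 0 of 47 of the wider list were called by edgeR in any comparison, with 15, 7 and 16 at an unadjusted p under 0.05, where 14.3%, 15.1% and 14.1% of all genes had one. DESeq2 called 6, 3 and 3 of them at 10 against 8, 12 against 8 and 12 against 10 weeks, where it called 2.43%, 2.89% and 3.1% of all genes. Of the 18 hepcidin regulators tested, 16 were higher at 10 against 8 weeks (median 0.18) and 15 lower at 12 against 10 weeks (median -0.27), where the medians of all genes were -0.00058 and 0.0064. Of all 14672 genes tested, 7323 were higher in the first comparison and 7191 lower in the second. Both comparisons use the same 4 libraries at 10 weeks, so that opposite signs in them are not 2 separate observations, and at 12 against 8 weeks 11 were higher and 7 lower (median 0.05). Some but not all lists of marker genes had values of the same signs without an edgeR call. The macrophage markers were higher in 8 of 8 and then lower in 8 of 8 (medians 0.76 and -1.02), the acute phase genes in 7 of 7 and 7 of 7 (1.23 and -0.82), and the sinusoidal endothelial markers in 4 of 5 and 5 of 5 (0.20 and -0.77). The hepatocyte markers were instead lower in 3 of 5 and then higher in 4 of 5 (-0.17 and 0.12), and the erythroid markers tested were higher in 3 of 3 both times (0.084 and 0.099). The acute phase sum ran from 4893 to 9381 CPM at 8 weeks, 4597 to 20870 CPM at 10 weeks and 3620 to 8798 CPM at 12 weeks, overlapping between ages. Its value of 20870 CPM was that of library 2 at 10 weeks alone, also the library highest in Hamp. The other libraries at 10 weeks lay between 4597 and 5980 CPM. The part of these markers in the values of the regulators was not tested. Among these regulators Tmprss6, the liver protease that trims hemojuvelin, was at 573 ± 23.2, 607 ± 42.7 and 629 ± 40.6 CPM in liver and under 0.1 CPM on average in heart and kidney. Bmp2 was at 30.4 ± 11.9, 35.0 ± 5.47 and 19.4 ± 4.76 CPM in liver at 8, 10 and 12 weeks and at most 1.89 CPM on average elsewhere. Hfe, which works with Tfr2, was between 46.7 and 62.4 CPM in the liver libraries, 35.4 and 53.3 CPM in heart and 9.01 and 12.4 CPM in kidney.

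Hamp was set against genes of BMP signalling, the transferrin receptor genes and the acute phase gene Saa1, over the 12 liver libraries. With unstranded counts Pearson's r was 0.53 with Id1 (permutation p = 0.0839, adjusted 0.266), 0.51 with Smad7 (0.0887, adjusted 0.266) and 0.35 with Bmp6 (0.271, adjusted 0.487), of 6 relations computed and none passing. Spearman's rho was 0.45, 0.48 and 0.45. Without the 2 libraries farthest from the median, r fell to 0.25 for Id1 and 0.051 for Smad7. The relations with Tfr2 (-0.31), Saa1 (0.26) and Tfrc (-0.20) were weaker (permutation p of 0.325, 0.421 and 0.529). With both strands r was 0.18 for Id1, 0.24 for Smad7 and 0.41 for Bmp6.

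With both strands Hamp and Hamp2 moved together, with r = 0.92 (permutation p = 6e-05, adjusted 0.00042 over 7 relations) and rho = 0.83 (p = 0.00158, adjusted 0.0111), and r = 0.78 without the 2 farthest libraries. The genes share near-identical sequence and the overlapping gene Gm44662, so their counts are not independent measures. An age holds 4 libraries, too few for a value within it.

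The genes whose levels were most like each member over the 12 libraries of its highest tissue were found among 7322 to 9073 genes of at least 10 CPM, and are given as a description. For Tfrc in kidney they were Usp14 (r = 0.94), Rala (0.94) and Rsad2 (0.94), for Bmp6 in kidney Man2a1 (0.92), Mib1 (0.92) and Gpx3 (0.92), and for Fth1 in kidney Dapk1 (0.88), Tbca (0.87) and Tmt1a2 (0.87). For Ftl1 in liver they were Psmc6 (0.91), Fkbp8 (0.90) and Myl12a (0.89), for Trf in liver Rnase4 (0.90), Pzp (0.85) and Tmc6 (0.84), for Tfr2 in liver Arhgap18 (0.86), Habp2 (0.85) and Lpl (0.84), and for Slc40a1 in liver Atf7 (0.79), Dennd5b (0.78) and Pfkfb3 (0.77). For Hjv in heart they were As3mt (0.86), Rpn2 (0.83) and Mtr (0.81). The likeness of Hamp depended on the count, with Polr1f (0.85), Klhl9 (0.84) and Bclaf1 (0.82) for unstranded counts and Srsf7 (0.93), Hamp2 (0.92) and Mfsd14b (0.91) for both strands.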

How the data were processed

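PolyA RNA of 36 libraries was sequenced as read pairs of 150 bases. Per the labels and the study's methods, the authors checked reads with FastQC 0.11.9, trimmed them with cutadapt 4.2, aligned them to GRCm39 (Ensembl annotation) with STAR 2.7.11b and deposited raw counts per gene, unstranded and for each strand. A pair matching several places or, in the unstranded column, overlapping 2 genes was not counted (7.36% to 8.95% ambiguous, 6.26% to 19.1% multi-mapped). The remaining summary lines name no gene and were left out of library sizes.

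Gene names and positions came from GENCODE vM39, which held 78168 of the 78239 gene identifiers. Genes were kept when at least 2 libraries had a count above 0 and an age group had a mean of at least 10. Differences were tested with edgeR 4.0.16 (R 4.3.3; TMM factors, glmQLFit, glmQLFTest), with each tissue fitted alone for ages and all 36 libraries for tissues and interactions, and p-values adjusted by Benjamini-Hochberg over all genes kept. Alternatives were limma-voom (limma 3.58.1), DESeq2 1.42.0, RLE or no factors, no count filter, 2 ages only, a single strand, a replicate block, each library left out, and, chosen after seeing the data, both strand counts summed. CPM use TMM factors over all libraries, and correlations log2 CPM with a prior count of 2 and 100000 permutations, two-sided. The shares of all genes that separated 2 ages used TMM factors from the libraries of that tissue alone. The smallest chi-square per gene between 2 libraries of a group was 5.90, where 1 is counting error, so replicates were not copies of one library. The fits were tested on simulated data.

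The members, gene lists and marker lists were chosen with earlier results of these data known. Named genes are all members, listed genes called in an age comparison, at most 4 a list, and the 3 genes most like each member. Tmprss6, Bmp2 and Hfe were named as regulators, and Id1, Smad7 and Saa1 as genes set against Hamp. Protein sequences were not used here, and some sequence comparisons are not reported here.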

Additional observations from a re-analysis of the deposited data

Results flagged for a closer look

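Among the 100 groups of 4 libraries examined, 6 held a library far from the other 3, where chance gives about 1 in 20. In liver these were Hjv in library 2 at 10 weeks (78.0 CPM, the others 102 to 105), Tfr2 in library 1 at 10 weeks (634 CPM, the others 595 to 600), and library 2 at 8 weeks for both Slc40a1 (291 CPM, the others 206 to 218) and Bmp6 (10.2 CPM, the others 5.13 to 5.91). In heart Bmp6 stood at 60.0 CPM in library 4 at 12 weeks (the others 38.4 to 39.4), which is also the library with a hepatocyte marker sum of 3.89 CPM. In kidney Trf with both strands summed was 10.2 CPM in library 2 at 12 weeks (the others 12.5 to 12.8). The change of Ftl1 from 8 to 12 weeks differed between liver and heart by 1.07 ± 0.22 (log2 ± SE, edgeR interaction, adjusted p = 0.00539), and this difference passed the threshold in all 7 settings tried and in 36 of 36 fits without 1 library.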

How the results depend on the processing

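The count of members called at an adjusted p under 0.05 changed as follows. Without a count filter it became 3 in heart at 10 against 8 weeks (Slc40a1, Bmp6 and Tfrc), 2 in heart at 12 against 8 weeks and 1 in heart at 12 against 10 weeks (Trf). In kidney it became 2 at 10 against 8 weeks and 1 at 12 against 8 weeks (Tfrc). For the interaction, the change from 8 to 12 weeks in liver minus that in kidney, it became 2 (Ftl1 and Tfrc). The share of all genes called without a filter is not given, so these counts cannot be set against the rate over all genes. DESeq2 gave 2 in kidney at 10 against 8 weeks (Slc40a1 added), 1 at 12 against 10 weeks (Fth1) and 1 in liver at 12 against 8 weeks (Fth1, adjusted p = 0.0413). A fit of 2 ages and the single strand each gave 0 in kidney at 10 against 8 weeks. Leaving out 1 library gave 0 to 1 in heart at 12 against 8 weeks and in kidney at 10 against 8 weeks. For the wider list DESeq2 gave 4 and 2 in heart at 10 against 8 and 12 against 10 weeks, 1 and 1 in kidney at 12 against 8 and 12 against 10 weeks, and 6, 3 and 3 in liver, where both strands summed gave 1 at 10 against 8 weeks. Leaving out 1 library gave 0 to 4, 2 to 9 and 0 to 1 in heart at 10 against 8, 12 against 8 and 12 against 10 weeks, then 0 to 2, 0 to 1 and 0 to 1 for the same kidney comparisons, whereas in liver it gave 0 to 1 at 10 against 8 weeks and 0 to 2 at 12 against 8 weeks. The share of all genes called is likewise not given for the fits that left out 1 library. Nor is it given for DESeq2 in heart and in kidney at 12 against 8 weeks, or for both strands in liver at 10 against 8 weeks. It is also not given for the fits of 2 ages, of a single strand or with a block. The cause was not tested. No value changed sign in these settings among called results. The labels do not say whether same-numbered libraries of different tissues share a mouse, and they were not taken as pairs in the main tests. Of 36 such pairs of one age 34 had a correlation above 0 and 4 one over 0.1 (median 0.0545, -0.00884 to 0.164), against 18 and 2 of 36 pairs of one tissue and different ages (median 0.0025). Among the 4 libraries of another tissue at the same age, a library correlated best with its own number in 57 of 72 cases, a hint from the data that the numbers may pair them, against 16 of 72 between ages of one tissue. The tissue and interaction tests treat these libraries as independent. With a block for age and number Bmp6 for kidney minus heart (adjusted p = 0.0194) and Tfrc for liver minus kidney (0.0145) were added, and the change of Ftl1 in liver minus heart was 1.07, still called. Within a tissue a replicate block left the members called at 1 in heart at 12 against 8 weeks and 1 in kidney at 10 against 8 weeks, and lost Slc48a1.

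Hamp and Hamp2 in heart and kidney, Hjv in kidney and Tfr2 in heart had only a few counts at this depth. The overlap with Gm44662 limits any statement on Hamp and Hamp2 by age.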
